A study of Mus musculus with 10 samples.

Results

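A set of 10 genes that carry cholesterol through and out of cells was followed in mouse adipocyte precursors (APs) with and without interleukin-4 (IL-4). The genes were Abca1, Abcg1, Apoe, Scarb1, Npc1, Npc2, Lipa, Soat1, Mylip and Lpcat3. They were chosen by name, as the rows that carry these symbols among the 18384 genes listed in the mRNA sequencing tables, and all 10 had reads in every library. In the gene ontology terms deposited with the tables, 6 of the 10 (Abca1, Abcg1, Npc1, Npc2, Scarb1 and Soat1) carried the term cholesterol efflux. Soat1, Mylip and Lpcat3 act in sterol storage, receptor degradation and phospholipid remodelling, so that the set is wider than efflux in the strict sense.

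APs are the cells of the fat tissue stroma that can become adipocytes. They were isolated from the subcutaneous white fat of C57BL/6J mice by removing cells that bear the leukocyte surface protein CD45 or the endothelial protein CD31 and then keeping cells that bear SCA-1, and were grown in culture. The control group was 3 cultures without added cytokine, and the IL-4 group was 3 cultures to which IL-4 was added the day after seeding. Both were harvested for mRNA on day 4, and a separate pair of control and a pair of IL-4 cultures were harvested for small RNA on day 2. All cells were of the same strain. The labels call the samples of a group biological replicates. Whether each came from its own mice was not given in the sources used here, so the p-values measure the spread between these samples. The age of the mice and the dose of IL-4 were not given there either.

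Cells take up cholesterol in lipoproteins, whose cholesteryl esters are split in the lysosome, and pass the free sterol from there to other membranes. Excess sterol is esterified for storage or handed across the plasma membrane to lipoprotein particles by transporters of the ABC family. Liver X receptors (LXRs), nuclear receptors that oxysterols activate, switch on many genes of the efflux arm, and the transcription factor SREBP2 switches on uptake and synthesis when membrane sterol is low. Fat tissue holds a large store of free cholesterol, and macrophages are the cells in which this efflux pathway is best known.

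The mRNA libraries were of nearly equal depth, with 28526832 to 28674637 expected counts in the control group and 28914068 to 29057808 in the IL-4 group. Normalized counts below are these expected counts scaled to a common library size by the trimmed mean of M-values (TMM), and levels of different genes were compared only in FPKM, which divides by transcript length. Of 12 AP markers, 12 were read in both groups, and their summed level was 4166 to 4484 FPKM in control and 4730 to 5035 FPKM in IL-4 libraries. Most of that sum was Col1a1 (3167 to 3473 and 3430 to 3860 FPKM), and single markers moved both ways. Their log2 fold changes ran from −0.67 for Dlk1 to 4.02 for Pi16. Macrophage markers were also present: 19 of 19 were read, none was at 0 in any library, and their sum was 4911 to 6403 FPKM in control and 2039 to 2736 FPKM in IL-4 libraries. Lyz2 alone gave 2469 to 3225 FPKM of it in control and 673 to 937 FPKM in IL-4 libraries. Ptprc, which encodes the CD45 protein used for depletion, had a mean of 2563 normalized counts without IL-4 and of 1294 with it. A list of 10 genes that macrophages express on IL-4 summed to 6.41 to 12.2 FPKM in control and 3282 to 4456 FPKM in IL-4 libraries. Nearly all of the sum in IL-4 libraries came from Chil3 (1371 to 1770 FPKM), Arg1 (1223 to 1661 FPKM) and Retnla (663 to 992 FPKM). Ccl17, Alox15 and Cd209a of this list had too few counts to be tested. Ccl17 lay at 0.30 to 0.52 FPKM in control and lower, at 0 to 0.22 FPKM, in IL-4 libraries. Of the markers of mature adipocytes, Cidec, Lep and Retn had no row in any library, and the list summed to 33.6 to 39.4 FPKM in control and 57.2 to 80.3 FPKM in IL-4 libraries, nearly all of it from Fabp4 (32.8 to 38.6 and 54.6 to 78.3 FPKM). Endothelial markers summed to 12.9 to 13.5 FPKM and 9.88 to 10.4 FPKM, mesothelial markers to 6.21 to 7.12 FPKM and 8.80 to 10.5 FPKM, nearly all from Krt19, while Msln was at most 0.22 FPKM, and lymphocyte markers to at most 0.15 FPKM in any library. In such bulk samples, fewer cells of a type and less RNA per cell cannot be told apart.

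The 10 genes moved in both directions. Abcg1, Npc2, Npc1, Lpcat3, Soat1 and Lipa were higher in IL-4-treated APs, Apoe, Scarb1 and Mylip were lower, and Abca1 did not pass the test. The call was an adjusted p under 0.05 in edgeR's quasi-likelihood test, with p-values adjusted over all 14009 genes tested by the Benjamini-Hochberg method. Thus 9 of the 10 genes were called, 6 higher and 3 lower, where 37.4% of all genes tested were called (19% higher and 18.4% lower). Among genes with a mean of at least 500 normalized counts, the share called was also 37.4%. A change beyond 2-fold was called for Abcg1 upward and Apoe downward, against 5.77% and 5.26% of all genes (11% in either direction). Groups did not overlap in normalized counts for 9 of the 10, all but Abca1, against 50.4% of all genes and 50.9% of those with a mean of at least 500 normalized counts. The median size of the log2 fold change was 0.41 for the 10 genes and 0.22 for all genes tested. The 10 genes were chosen with earlier results of these data known, so these contrasts with all genes are not a test of the set. The part that the fall of the macrophage marker sum had in these changes was not tested.

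**Figure D1:**
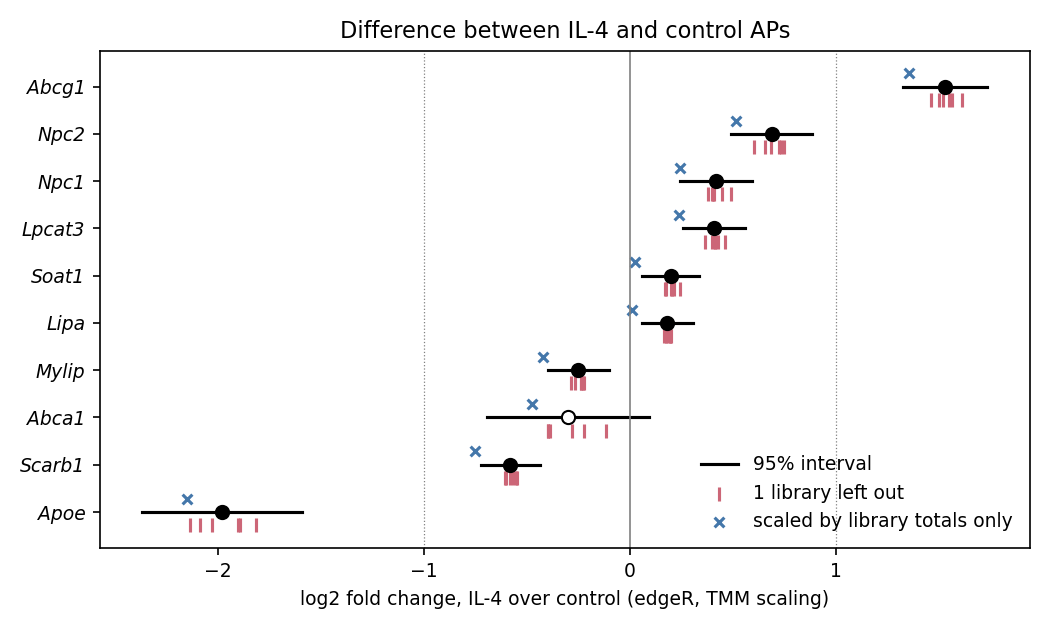
Log2 fold change (IL-4 minus control) of the 10 genes, from edgeR's quasi-likelihood fit with 95% confidence intervals. Abcg1 lies at 1.53 and Apoe at −1.98, the other genes lie between −0.58 and 0.69, and the interval of Abca1 includes 0.

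The order of levels changed at its top. In control APs Apoe was the most abundant of the 10 mRNAs, at 534 ± 108 FPKM (SD, n = 3), followed by Npc2, Lipa, Soat1, Npc1, Lpcat3, Scarb1, Abca1, Mylip and Abcg1. The FPKM ranges over the 3 libraries did not overlap for 7 of the 9 pairs of neighbours, the exceptions being Soat1 with Npc1 and Lpcat3 with Scarb1. In IL-4-treated APs Npc2 came first at 184 ± 22.6 FPKM (SD, n = 3), then Apoe, Lipa, Npc1, Soat1, Lpcat3, Abca1, Scarb1, Mylip and Abcg1. There the pairs Npc1 with Soat1 and Abca1 with Scarb1 overlapped. Apoe alone made up 53.7 to 62.5% of the summed FPKM of the 10 genes in control libraries and 19.7 to 24.2% in IL-4 libraries. The sum without Apoe was 386 to 393 FPKM in control and 429 to 462 FPKM in IL-4 libraries.

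**Figure D2:**
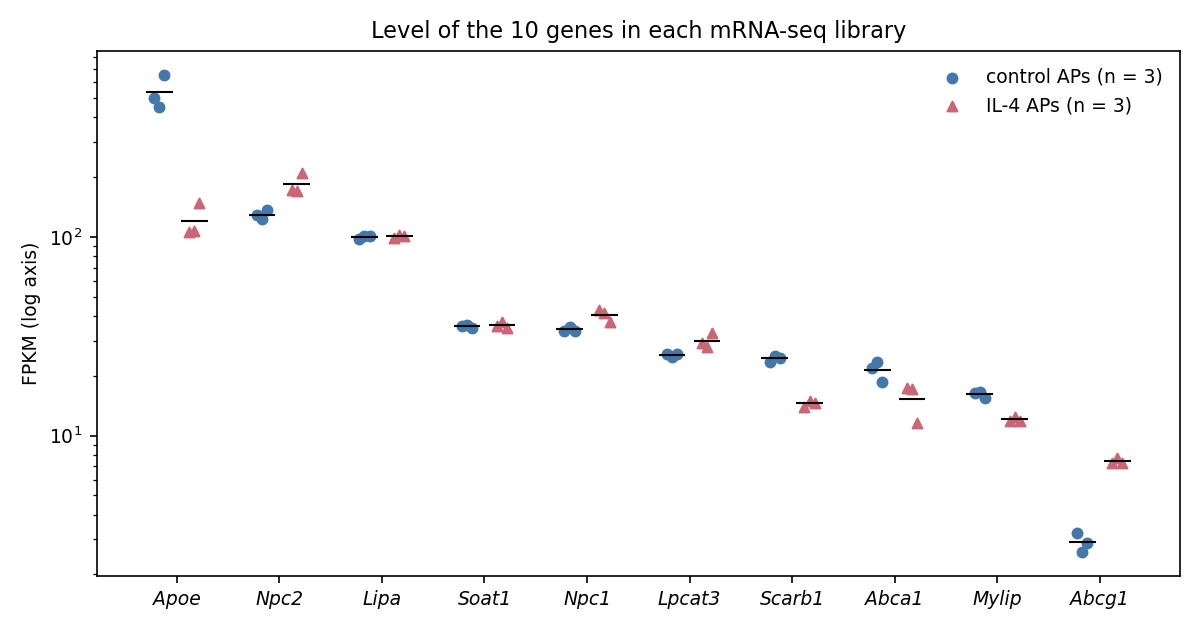
FPKM of the 10 genes in each of the 6 mRNA libraries on a log axis, with the group means. Apoe falls from the top of the control order to the second place in IL-4 libraries, and Abcg1 is last in both groups while its level moves from 2.90 to 7.42 FPKM.

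Abcg1 encodes a half-size ABC transporter that moves cholesterol to high-density lipoprotein and is a standard LXR target. Its gene spans positions 31057694 to 31117984 of chromosome 17 (GRCm38). The control libraries held 503.8, 409.8 and 448.4 normalized counts and the IL-4 libraries 1292, 1379 and 1259. Each IL-4 library was thus well above each control library. The gene rose 2.88-fold, with a log2 fold change of 1.53 (SE 0.089, 95% confidence interval 1.32 to 1.73, adjusted p = 6.45e-06, edgeR). It was the least abundant of the 10 in both groups, at 2.90 ± 0.310 FPKM in control and 7.42 ± 0.275 FPKM in IL-4 libraries (SD, n = 3).

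Abca1, on chromosome 4 at 53030789 to 53159988, encodes the full-size transporter that loads phospholipid and cholesterol onto lipid-poor apolipoproteins, and it too is a standard LXR target. Its normalized counts were 6073, 6532 and 5126 in control and 5466, 5401 and 3523 in IL-4 libraries. The groups overlapped, and the lowest value belonged to IL-4 replicate 6. The log2 fold change was −0.30 (SE 0.17, 95% confidence interval −0.69 to 0.09, adjusted p = 0.206, edgeR), an interval that runs from 0.619-fold to 1.06-fold. The confidence intervals of the 2 ABC transporters did not overlap. The FPKM ratio of Abca1 to Abcg1, chosen after the values were seen, was 6.80, 8.99 and 6.46 in control and 2.39, 2.21 and 1.58 in IL-4 libraries. An exact two-sided permutation test gave p = 0.1 for this ratio, the smallest value that 3 against 3 libraries allow.

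The value of Abca1 depended on the libraries and the scaling. Its transcript is long, at 10260 bases, and in control replicate 3 and IL-4 replicate 6 long transcripts were low: the 497 genes with transcripts over 8000 bases had a median deviation from the mean of the other 2 libraries of their group of −0.26 and −0.50 on the log2 scale in these libraries, where Abca1 deviated by −0.30 and −0.62. The 1749 genes with transcripts under 1500 bases deviated by 0.16 and 0.32 there, and Apoe, whose transcript has 1288 bases, by 0.45 and 0.43. Without both libraries, an alternative chosen after the data were seen, the log2 fold change of Abca1 was −0.21 and passed the test (adjusted p = 0.000734, edgeR), and that of Apoe was −1.97. Scaling by library totals gave −0.48 for Abca1 (adjusted p = 0.0376, edgeR), and on the FPKM scale its groups did not overlap, at 18.67 to 23.37 in control and 11.50 to 17.31 in IL-4 libraries. Between the groups, the median log2 fold change was −0.12 for the transcripts over 8000 bases and 0.10 for those under 1500 bases. The part of transcript length in these values was not tested.

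**Figure D3:**
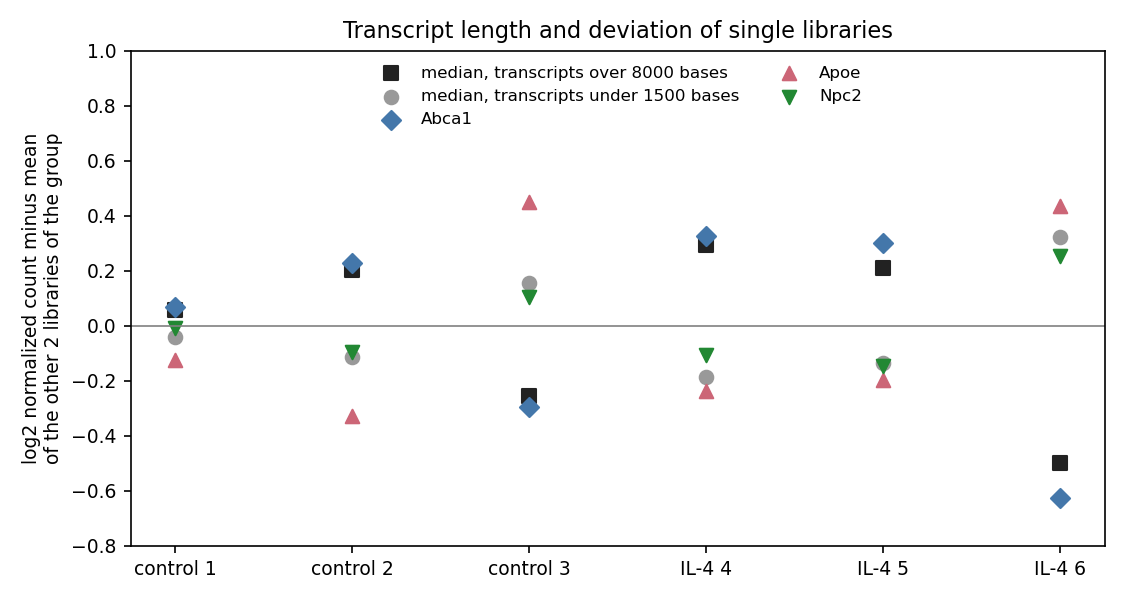
Log2 normalized count minus the mean of the other 2 libraries of the group, in each of the 6 mRNA libraries, as the median of genes with transcripts over 8000 or under 1500 bases and for Abca1, Apoe and Npc2. In control replicate 3 and IL-4 replicate 6 the long transcripts and Abca1 lie below 0, and the short transcripts, Apoe and Npc2 above it.

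The regulatory sequences of the transporters are shown because both genes are known targets of LXR and of the microRNA miR-33-5p, which is made from an intron of Srebf2 (chr15:82198122-82198190). In the RefSeq mouse sequences (GRCm38.p6), a window from 250 bases before to 50 bases after the start site was given for 7 of the 10 genes. Not given were Abcg1, Npc1 and Scarb1. A relaxed form of the repeat that LXR binds, GGTNA and GGTCA with any 5 bases between them, on either strand, occurred in the window of Abca1 alone among the 7 and in 0.207% of the 32851 windows of all genes. It lay on the reverse strand, 67 to 53 bases before the start site of the window, position 53159895 of chromosome 4. This is the start of the curated RefSeq transcript and lies inside the gene's span given above, since predicted transcripts start farther upstream. The match is in capitals in the first line, which shows the gene's strand. The next lines give mature miR-33-5p with its seed (bases 2 to 8) in capitals and the stretches of the 3′ UTR of Abca1 and Abcg1 in which the seed match CAATGCA, in capitals, is clustered.
Abca1 promoter, chr4:53159940-53159969 (minus strand): cagcgttTGACCGGTAGTAACCccggcgct
miR-33-5p: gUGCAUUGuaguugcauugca
Abca1 3′ UTR, chr4:53033783-53033812 (minus strand): tattCAATGCAATGCActtCAATGCAacga
Abcg1 3′ UTR, chr17:31114996-31115025 (plus strand): gcaacgCAATGCAacgCAATGCAgacagtg
Abca1 held 3 such matches, a pair of them overlapping, and Abcg1 held 2, while the other 8 genes held none in their longest RefSeq 3′ UTR. Of all 13371 genes tested that had a UTR sequence, 6.96% held a match. The window of Abca1 also held the E-box CACGTG, 147 to 142 bases before the start site, which 7.15% of all windows hold. A strict form of the LXR repeat, a motif of the transcription factor STAT6 and the sterol regulatory element (SRE) were also searched. Each occurred in 0 of the 9 windows of the 7 genes, and in 0.0152%, 6.95% and 1.24% of all windows. The matches given here are matches of letters, searched after the expression values were known, and say nothing of binding.

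Apoe, which encodes the apolipoprotein E that macrophages and fat cells secrete to take up effluxed lipid, gave the largest change of the set. The gene lies at positions 19696244 to 19701310 of chromosome 7. Its normalized counts were 16476, 14995 and 21497 in control and 3971, 4048 and 5419 in IL-4 libraries. The highest IL-4 library stayed far below the lowest control library. Apoe fell 3.94-fold, with a log2 fold change of −1.98 (SE 0.17, 95% confidence interval −2.37 to −1.59, adjusted p = 5.14e-05, edgeR). Per length it went from 534 ± 108 to 120 ± 23.9 FPKM (SD, n = 3).

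The macrophage markers moved in the same direction as Apoe: 16 of the 19 fell, Mrc1 and Cd163 rose, and Cd68, with a log2 fold change of 0.38, was not called. Lyz2, the lysozyme of macrophages, fell by 1.64 on the log2 scale, Csf1r, the receptor of macrophage colony-stimulating factor, by 1.05, and C1qa, a complement subunit, by 1.20. Some markers fell more than Apoe, with log2 fold changes of −8.65 for Cx3cr1, −4.43 for Aif1, −2.91 for Fcgr1 and −2.59 for Cd14. The other markers that fell did so by less than Apoe (−1.98), and the median of the list was −0.95. The ratio of Apoe to Lyz2 in FPKM, chosen after the values were seen, was 0.197, 0.182 and 0.203 in control and 0.156, 0.149 and 0.158 in IL-4 libraries. The ratio was lower in each IL-4 library (exact two-sided permutation p = 0.1, the smallest possible). How much of the Apoe mRNA came from macrophages in either group was not tested. Apoc2, the lipoprotein lipase activator encoded beside Apoe, fell from 72.6 ± 21.7 to 6.01 ± 1.71 normalized counts (log2 fold change −3.57, adjusted p = 0.000106, edgeR). Of the other neighbours of Apoe, chosen after the values were seen, Apoc4 and Nectin2 had no row under these names. Those tested were not called, with log2 fold changes of −0.22 for Tomm40, −0.09 for Clptm1 and −0.02 for Bcam. Apoc1 had too few counts to be tested.

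**Figure D4:**
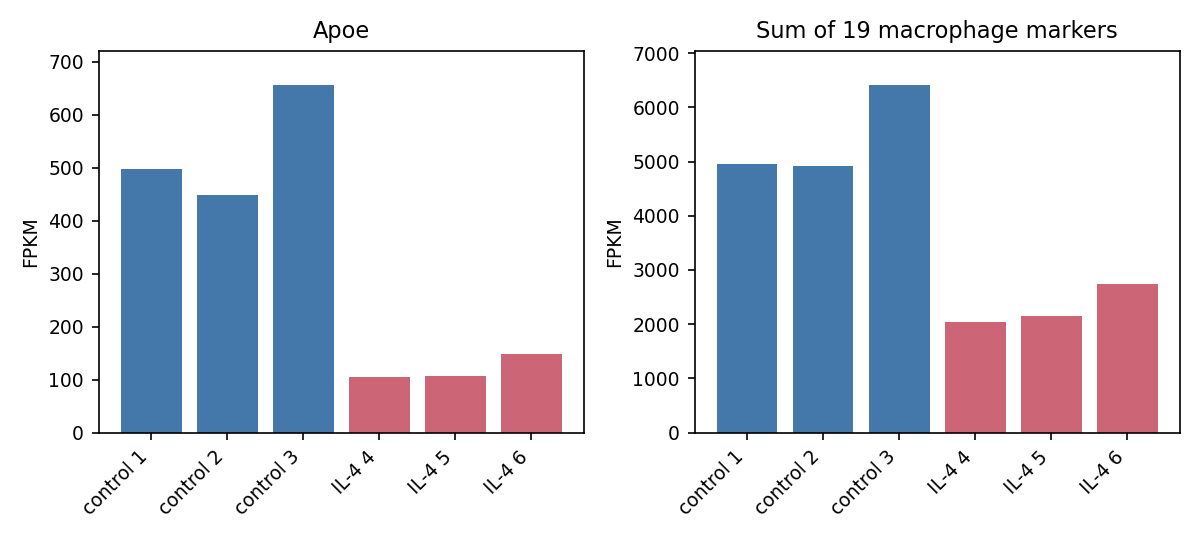
Apoe and macrophage markers in each of the 6 mRNA libraries (FPKM). Apoe lies at 449 to 655 FPKM in control and 105 to 148 FPKM in IL-4 libraries, and the summed macrophage markers at 4911 to 6403 and 2039 to 2736 FPKM.

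Scarb1 encodes the scavenger receptor SR-BI, which exchanges cholesterol with high-density lipoprotein in both directions. At 125277087 to 125341094 of chromosome 5, it had 1559, 1685 and 1614 normalized counts in control and 1050, 1127 and 1072 in IL-4 libraries. The groups were clearly apart, with SDs of 3.91% and 3.70% of the mean. Scarb1 fell to 0.669 of the control level, with a log2 fold change of −0.58 (SE 0.062, 95% confidence interval −0.72 to −0.44, adjusted p = 0.000189, edgeR). Its level went from 24.5 ± 0.869 to 14.5 ± 0.477 FPKM (SD, n = 3).

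The genes of lysosomal cholesterol release rose, Npc2 most. NPC2 is the soluble lysosomal protein that picks up free cholesterol and hands it to NPC1, the membrane protein through which the sterol leaves. Npc2 (chromosome 12, 84754559 to 84773112) had 11207, 10754 and 11792 normalized counts in control and 17171, 16873 and 20308 in IL-4 libraries. It rose 1.61-fold, with a log2 fold change of 0.69 (SE 0.085, 95% confidence interval 0.49 to 0.88, adjusted p = 0.000424, edgeR). With 129 ± 7.11 FPKM in control and 184 ± 22.6 FPKM in IL-4 libraries (SD, n = 3), it was several times more abundant than Npc1.

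Npc1 (chromosome 18, 12189694 to 12236506) had 4726, 4981 and 4659 normalized counts in control and 6814, 6608 and 5763 in IL-4 libraries. The lowest IL-4 library was replicate 6, and the groups did not overlap. The log2 fold change was 0.42 (SE 0.075, 95% confidence interval 0.24 to 0.59, adjusted p = 0.00315, edgeR), a rise of 1.34-fold. In 5 libraries the expected count of Npc1 was not a whole number, as RSEM gives where a read maps to several places. The ratio of Npc2 to Npc1 in FPKM was 3.77 ± 0.299 in control and 4.59 ± 0.913 in IL-4 libraries (SD, n = 3), and the groups overlapped (exact two-sided permutation p = 0.2).

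Lipa encodes lysosomal acid lipase, which splits cholesteryl esters ahead of NPC2 and NPC1. On chromosome 19 at 34492316 to 34527474, it had 7774, 8090 and 7928 normalized counts in control and 8880, 9203 and 8903 in IL-4 libraries. The groups did not overlap in these counts. The difference was small, 1.13-fold with a log2 fold change of 0.18 (SE 0.053, 95% confidence interval 0.06 to 0.30, adjusted p = 0.0291, edgeR). Soat1, the acyltransferase that makes cholesteryl esters for storage (chromosome 1, 156428108 to 156474328), had 4566, 4641 and 4413 normalized counts in control and 5223, 5468 and 4932 in IL-4 libraries. It rose 1.15-fold, with a log2 fold change of 0.20 (SE 0.060, 95% confidence interval 0.06 to 0.34, adjusted p = 0.0332, edgeR). Both calls depended on the scaling. DESeq2 kept both, at 0.18 and 0.19 (adjusted p = 0.0138 and 0.0312), and upper-quartile scaling kept Soat1 at 0.17 (adjusted p = 0.0384, edgeR) but not Lipa at 0.16 (adjusted p = 0.0576, edgeR). Scaled by library totals, the log2 fold changes were 0.009 for Lipa (adjusted p = 0.906, edgeR) and 0.025 for Soat1 (adjusted p = 0.739, edgeR). In FPKM the groups overlapped, at 97.8 to 101 and 98.2 to 102 for Lipa, and at 34.7 to 35.9 and 34.8 to 37.4 for Soat1. Both calls were also lost without any of control replicates 1, 2 and 3 and without IL-4 replicate 4 or 5, with log2 fold changes of 0.17 to 0.21 and adjusted p = 0.0539 to 0.123 (edgeR).

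Of the LXR targets outside transport, Mylip fell and Lpcat3 rose. Mylip encodes IDOL, a ubiquitin ligase that marks lipoprotein receptors such as VLDLR and ApoER2 (Lrp8) for degradation. Located at 45389742 to 45411940 of chromosome 13, it had 1302, 1323 and 1219 normalized counts in control and 1071, 1118 and 1043 in IL-4 libraries. The groups did not overlap, and Mylip fell 1.19-fold, with a log2 fold change of −0.25 (SE 0.063, 95% confidence interval −0.40 to −0.10, adjusted p = 0.0156, edgeR). This call was lost without control replicate 1, control replicate 2 or IL-4 replicate 4, with log2 fold changes of −0.24, −0.23 and −0.24 (adjusted p = 0.0676, 0.0724 and 0.0548, edgeR). Lpcat3 encodes the enzyme that puts polyunsaturated chains into membrane phospholipids. On chromosome 6 at 124663094 to 124704716, it had 1697, 1659 and 1690 normalized counts in control and 2210, 2099 and 2392 in IL-4 libraries. It rose 1.33-fold, with a log2 fold change of 0.41 (SE 0.065, 95% confidence interval 0.26 to 0.56, adjusted p = 0.00159, edgeR). Its expected counts were fractional in all 6 libraries, so that some of its reads may belong to another gene.

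The genes around these 10 were described with 7 lists of the same pathway, 83 genes in all, of which 77 were tested, 22 rose and 26 fell, where 19% of all genes tested were higher and 18.4% lower. These shares are the background for each list below, and the lists too were chosen with earlier results of these data known. The median log2 fold change over the 77 was −0.02, beside 0.003 for all genes tested. Without control replicate 1 or IL-4 replicate 5, 16 fell, and with limma on FPKM above a minimum mean of 1 FPKM 14 rose. The macrophage marker sum fell while these lists moved both ways, and its part in them was not tested. The lists differed in direction, and the clearest was the SREBP2 list of cholesterol synthesis and its control, in which 8 of 10 genes fell, none rose, and the median was −0.69.

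**Figure D5:**
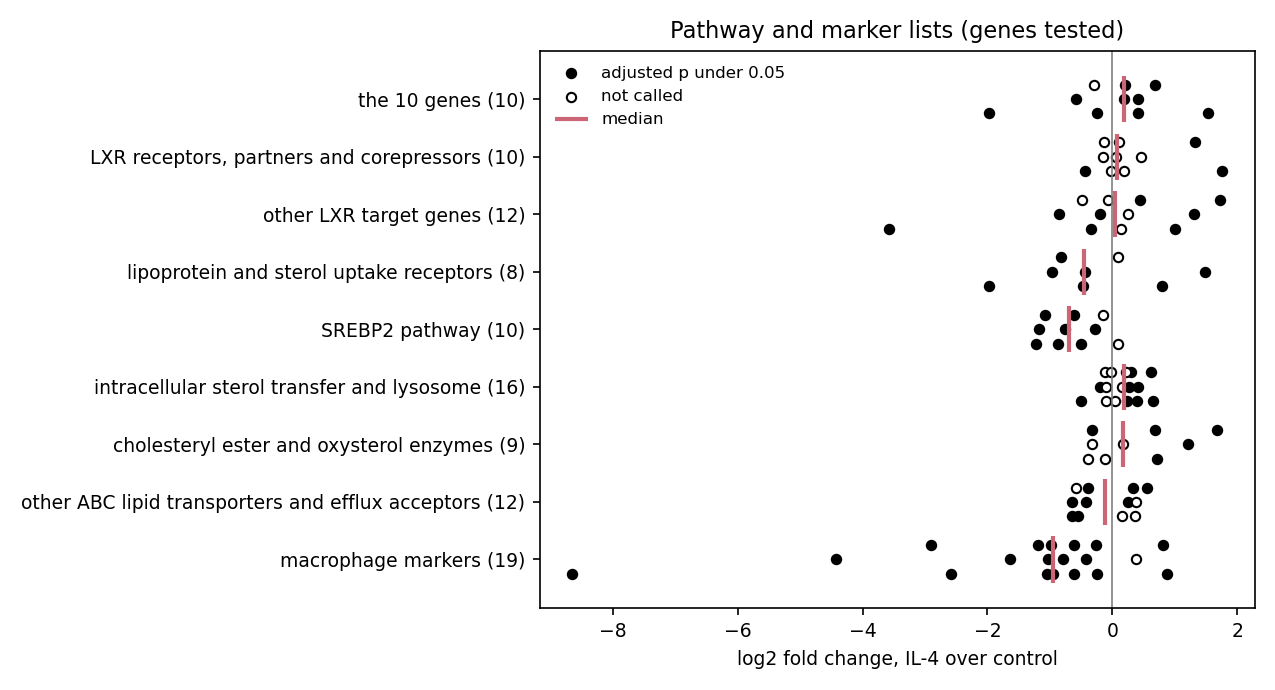
Log2 fold change (IL-4 minus control) of each tested gene of the pathway and marker lists, with called genes marked. The SREBP2 list lies at or below 0.09, and most macrophage markers lie below 0.

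The receptors and partners through which LXR acts gave 2 genes higher and 1 lower of 10 tested, with a median of 0.08. Nr1h2, encoding LXR-beta, had 1896 ± 73.0 normalized counts without and 2032 ± 159 with IL-4 (SD, n = 3), and was not called (log2 fold change 0.10, adjusted p = 0.323, edgeR). Nr1h3, encoding LXR-alpha, rose from 103.6, 106.5 and 107.9 to 261.0, 248.7 and 286.0 normalized counts (log2 fold change 1.32, adjusted p = 2.68e-05, edgeR). Pparg, the nuclear receptor of adipocyte differentiation, rose by a log2 fold change of 1.76.

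Other LXR target genes moved both ways, 4 higher and 4 lower of 12 tested, with a median of 0.03. Lpl, the lipase that frees fatty acids from lipoproteins, rose from 17350 ± 90.5 to 57255 ± 3315 normalized counts (log2 fold change 1.72). Arl4c, a small GTPase (1.31), and Pltp, the phospholipid transfer protein, which went from 2980 to 5974 normalized counts, also rose. Mertk, a receptor for dying cells, fell by 0.86 on the log2 scale, and Srebf1, the regulator of fatty acid synthesis, by 0.19 (adjusted p = 0.0441, edgeR).

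Uptake receptors were mostly lower, 5 of 8 tested against 2 higher, with a median of −0.45. Lrp8, a substrate of the Mylip product, fell from 539.9, 538.3 and 558.2 to 129.5, 164.4 and 120.8 normalized counts (log2 fold change −1.98). Vldlr, also a substrate, named after its values were seen, went the other way (log2 fold change 0.80, adjusted p = 0.000146, edgeR). Cd36, a fatty acid and oxidized lipoprotein receptor, rose (1.48), and Msr1, a scavenger receptor of macrophages, fell by 0.96 on the log2 scale.

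Among the SREBP2 genes, Idi1 and Hmgcs1 of the mevalonate pathway fell by 1.23 and 1.08 on the log2 scale, and the sterol carrier Stard4 by 1.18. Srebf2 itself had 6149, 6367 and 5695 against 4664, 4621 and 3639 normalized counts (log2 fold change −0.49, SE 0.10, adjusted p = 0.00604, edgeR). In the deposited gene ontology, the term cholesterol biosynthetic process, which held none of the 10 genes, had 12 lower and 1 higher of 19 tested, with a median of −0.42.

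Genes of intracellular transfer and of the lysosome outside the set were higher for 7 and lower for 2 of 16 tested, with a median of 0.18. Scarb2, the lysosomal membrane protein LIMP-2, rose from 8295 ± 240 to 12698 ± 503 normalized counts (log2 fold change 0.61). Lamp1, a major lysosomal membrane protein (0.39), and the cytosolic sterol carrier Stard5 (0.41) rose as well, while Osbpl8, an oxysterol-binding protein relative, fell by 0.50 on the log2 scale.

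Enzymes of cholesteryl esters and oxysterols were higher for 4 and lower for 1 of 9 tested, with a median of 0.17. Ch25h, which makes 25-hydroxycholesterol, had 1289, 1423 and 1602 normalized counts in control and 3968, 4208 and 5620 in IL-4 libraries. The IL-4 libraries were all higher, with a log2 fold change of 1.68 (SE 0.14, adjusted p = 5.33e-05, edgeR). Cyp7b1 and Hsd3b7, enzymes that convert oxysterols further, rose by log2 fold changes of 0.72 and 0.67. Soat2, the relative of Soat1, rose from 123 ± 8.19 to 283 ± 29.6 normalized counts (1.21). Like those of Lpcat3, the expected counts of Soat2, Pltp, Abca3, Osbpl8 and Lyz2 were fractional in all 6 libraries. Those of Soat1 were fractional in the 3 IL-4 libraries. Some reads of these genes may therefore belong to other genes.

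The other ABC lipid transporters and efflux acceptors were higher for 3 and lower for 5 of 12 tested, with a median of −0.12. Abca3, known for lipid loading of lamellar bodies, rose (0.56), and Abcg3, Abca9 and Abca8a fell by 0.65, 0.64 and 0.56 on the log2 scale. Apoa1, the main acceptor of Abca1, had no row in any library. In the gene ontology term cholesterol efflux, 7 genes without the set's own members were tested, of which 3 were higher and 2 lower.

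The small RNA libraries, with 23790821 to 32061504 reads in mature miRNAs, were compared for 18 miRNAs known from other work to act on these genes, of which 15 were tested. None had an unadjusted p under 0.05 in edgeR's quasi-likelihood test, nor in DESeq2, where 6.09% of the 640 miRNAs tested with edgeR did and 0% had an adjusted p under 0.05. The count was 2 without control replicate 1, 2 without control replicate 2, 4 without IL-4 replicate 1 and 1 without IL-4 replicate 2. The log2 fold changes of the 15 ran from −0.60 to 0.71, with 8 above and 7 below 0. miR-33-5p, whose matches are shown above, had 291 and 407 reads in control and 439 and 630 in IL-4 libraries. Scaled for depth these were 373 and 381 against 469 and 518 normalized reads. The log2 fold change was 0.39 (SE 0.21, 95% confidence interval −0.11 to 0.88), with an adjusted p = 0.834 in edgeR's quasi-likelihood test.

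The miRNAs of the H19X cluster, which the study followed in these cells, were searched for seed matches in the same 3′ UTRs. The 6 miRNAs had log2 fold changes of 1.02 to 1.86 on day 2. Their unadjusted p was 0.000239 to 0.00985 and their adjusted p 0.0866 to 0.450 (edgeR). The study had singled them out in these same libraries. The sequences of 3, with the seed in capitals, are given because miR-322-5p and miR-503-5p share the first bases of the seed and matched none of the 10 genes, while miR-542-3p matched the most.
miR-322-5p: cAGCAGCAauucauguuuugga
miR-503-5p: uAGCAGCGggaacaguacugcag
miR-542-3p: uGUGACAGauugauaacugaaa
The match of miR-322-5p was in 22.8% and that of miR-503-5p in 4.62% of the UTRs of all genes tested. The match of miR-542-3p was in 4 of the 10 (Mylip, Npc1, Scarb1 and Lipa), against 15.4% of all. That of miR-351-5p was in Scarb1 and Soat1 (14.5% of all), that of miR-450b-5p in Abcg1 and Soat1 (12.1%) and that of miR-450a-5p in Npc1 (1.24%). The UTRs of the 10 genes had a median length of 1547 bases, beside 1077 bases for all genes. The UTRs with a miR-542-3p match had 779 to 1664 bases, and the rest of the 10 had 136 to 3699 bases. The part of UTR length in the matches was not tested. Of the 4 genes with a miR-542-3p match, Npc1 and Lipa were higher and Mylip and Scarb1 lower in IL-4-treated APs.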

How the data were processed

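APs from mouse subcutaneous fat were sequenced as poly-A mRNA (3 control and 3 IL-4 libraries, day 4) and as small RNA (2 and 2, day 2). Per the study's methods and labels, mRNA reads were filtered and mapped to mm10 with HISAT, and genes were quantified with Bowtie2 and RSEM. Small RNA reads were set against miRBase release 21. The deposited tables give RSEM expected counts and FPKM per gene, computed by the authors, and read counts per mature miRNA, as deposited. StringTie is also named in the submitters' processing notes.

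From these files, expected counts were rounded to whole numbers, and a gene without a row was set to 0. Rows were joined by gene identifier, since 26 symbols were written as dates, and 1 row without a gene name (0.00016% of counts) was dropped. About 87% of the expected counts were whole. Genes were filtered with filterByExpr (minimum count 10, minimum total 15), scaled by TMM and tested with edgeR 4.0.16 (R 4.3.3) glmQLFit and glmQLFTest, with no covariate, with Benjamini-Hochberg adjustment over all genes. The standard error is the log2 fold change divided by the square root of F. The common biological coefficient of variation was 0.0939. A miRNA listed at several precursors took its largest count. The fits were tested on simulated data. Ratios were tested by exact permutation.

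Members, lists and motifs were chosen with earlier results of these data known. All 10 members are described. Of each pathway list, up to 4 genes with the largest change among those called and with a mean of at least 100 normalized counts are named, plus Nr1h2, Nr1h3, Srebf1 and Srebf2. Some genes that this rule names are not reported here. Of the miRNA list, miR-33-5p and those with an unadjusted p under 0.05 are named. The H19X miRNAs were added after the data were seen. Alternatives were DESeq2 1.42.0, limma 3.58.1 on log-transformed FPKM (pseudocount 1 or 0.1, and with or without a minimum mean of 1 FPKM), upper-quartile and total-count scaling, no filter, and leaving out libraries.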

Additional observations from a re-analysis of the deposited data

How the results depend on the processing

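Abcg1, Apoe, Lpcat3, Npc1, Npc2 and Scarb1 kept their direction and their call under all 14 alternatives. For Abcg1 the log2 fold change was 1.46 to 1.61 when a library was left out and 1.11 to 1.55 under the other settings, and for Apoe −2.13 to −1.81 and −2.15 to −1.97. No result changed sign. With a library left out, 4 to 6 of the 10 genes were higher and 2 to 3 lower, and with the other settings 4 to 6 and 3 to 4. Abca1 was also called in limma at −0.47 (pseudocount 1, adjusted p = 0.0426) and −0.49 (pseudocount 0.1, adjusted p = 0.0444), but not in limma with no filter (−0.47, adjusted p = 0.0711) and not in DESeq2 (−0.31, adjusted p = 0.174). Without single libraries it ran from −0.40 to −0.12. Lipa was lost in 10 of 14 alternatives and Soat1 in 9. Scaling decided such small changes: library totals moved the median of all genes by −0.17 on the log2 scale, and 1704 genes were then higher and 4963 lower, so that 25.6% of calls were upward beside 50.8% (2663 higher, 2582 lower) under TMM; with limma on filtered FPKM 24.1% were. In the pathway lists, 22 genes were higher; limma on log2(FPKM + 1) and on log2(FPKM + 0.1) gave 14, and leaving out a library 18 to 29. The lower genes numbered 26, and 16 to 26 when a library was left out, with 16 without control replicate 1 and 16 without IL-4 replicate 5, where fewer samples entered. Of the listed miRNAs, 0 had an unadjusted p under 0.05; 2 did with no filter on low counts, 1 to 4 with a library left out, and 6 with the replicate number as a block, where miR-33-5p had a log2 fold change of 0.39 (unadjusted p = 0.0439, beside 0.105 without the block, edgeR). The small RNA samples share only a number (correlation of deviations 0.58, 2 pairs). No paired analysis was possible because the mRNA groups share no replicate numbers. For the changed counts the cause was not tested. Counting error is small at these depths except for genes near the filter, such as Apoc1, at most 2 counts in any library.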
